A study of Mus musculus with 52 samples.

Results

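10 genes of the unfolded protein response were taken as a list of symbols: the chaperones and co-chaperones Hspa5, Hsp90b1, Dnajb9, Sdf2l1, Creld2 and Pdia4, the degradation factors Herpud1 and Edem1, the stress sensor Ern1 and the transcription factor Xbp1. A gene was read from the probe set annotated to that symbol alone, or from the one with the highest mean where there were several. This gave 9 of the 10 genes, out of 22180 genes with a probe set of their own, of which 14911 were bright enough to be tested. The probe set of Pdia4, a protein disulfide isomerase, also carries Mir704, and Pdia4 was not analysed here.

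The unfolded protein response matches the folding capacity of the endoplasmic reticulum (ER) to its load of secreted and membrane proteins. When unfolded proteins accumulate, the sensor encoded by Ern1 (IRE1alpha) cuts the Xbp1 transcript, which is then rejoined to encode an active factor, ATF6 is released from the ER membrane, and PERK slows translation while favouring that of ATF4. XBP1 and ATF6 raise the transcription of ER chaperones and of factors for ER-associated degradation, whereas ATF4 drives genes of amino acid supply and, under lasting stress, Ddit3. Osteoblasts, which secrete collagen in bulk, and differentiating adipocytes both rely on this capacity.

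The arrays came from primary bone marrow cultures of 8 week old female C57BL/6J mice, in which the marrow of 2 to 4 animals was pooled for each experiment. The labels number the arrays 12, 15, 19 or 20, with 1 array of each number in each of 13 groups, 52 arrays in all, and these numbers are read here as the pools, which the labels do not state outright. Naive cultures were harvested undifferentiated, before osteoinductive medium was added 7 days after plating, by the growth protocol, although the treatment protocol lists naive cells among those given the medium, as the ones left untreated. Which of these holds was not settled here, and it bears on every comparison with naive cultures. The medium, with ascorbate, beta-glycerol phosphate, insulin and 10 nM dexamethasone, was common to the 12 other groups. These received 0.1% DMSO vehicle, 100 nM rosiglitazone (Rosi, an agonist of the adipocyte regulator PPAR gamma), 100 nM LG100268 (LG268, an agonist of the retinoid X receptor), 80 nM the organotin tributyltin (TBT), the flame retardant triphenyl phosphate (TPhP) or the phthalate metabolite MEHP for 1 or 4 days. For TPhP and MEHP the labels name no dose. Values are log2 intensities, and n is 4 pools in each group. All chemicals were compared with the same vehicle arrays, so that those comparisons share them.

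The cultures were labelled as mesenchymal stromal cells, and the 9 stromal markers tested, Pdgfra, Cxcl12 and Lepr among them, lay above the median of the value table (4.05) on all 52 arrays. That median is a low bar. Thy1 and Nt5e came near it, with lowest values of 4.55 and 4.29, and the 11 macrophage markers also passed it on all 52 arrays. The 11 macrophage markers had a mean log2 level of 10.58 to 10.67 over the naive arrays, with the macrophage lysozyme gene Lyz2 at 11.1 to 12.6 over all 52 arrays, so that the cultures also held haematopoietic RNA. Array medians ran from 3.97 to 4.15. At day 4, pool 12 differed from the other pools in the comparison of Rosi with vehicle: 8 of the 9 genes had a lower value with Rosi than with vehicle in pool 12, against 2 in pool 15, 5 in pool 19 and 1 in pool 20. Such counts in pool 12 were not confined to Rosi. There, 8 genes were lower with LG268, 7 with TBT, 9 with TPhP and 7 with MEHP. These counts all use the same pool 12 vehicle array. It was the highest day 4 vehicle array for Dnajb9, Herpud1, Sdf2l1, Hsp90b1, Ern1 and Edem1, and not for Hspa5, Xbp1 and Creld2. The results that rest on pool 12 are given with and without it below. The number of arrays limits the precision of every value.

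Promoters differed in the response elements they held. The part of these elements in the expression differences given below was not tested. The ER stress response element (ERSE), with letters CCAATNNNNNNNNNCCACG, was searched on both strands in the 250 bases before each annotated start in the RefSeq promoters of GRCm38.p6. It lay in 3 of the 10 promoters (Hspa5, Hsp90b1 with 2 matches, and Creld2) and in 0.113% of all 32851. ERSE-II, ATTGGNCCACG, lay in Herpud1 and in 0.0304% of all. The core ACGTG, bound by XBP1 and ATF6, lay in Hspa5, Herpud1 and Dnajb9 and in 16.6% of all promoters. In Herpud1 it overlapped ERSE-II, and in Dnajb9 the matches on both strands overlapped in the palindrome CACGTG. The stretches run 5' to 3' on the strand of the gene, and capitals mark the match.
Hspa5, chr2:34772000-34772068, plus strand, ERSE: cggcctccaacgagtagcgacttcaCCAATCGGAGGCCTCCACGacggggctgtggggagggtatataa
Hsp90b1, chr10:86705508-86705681, minus strand, ERSE at 2 places: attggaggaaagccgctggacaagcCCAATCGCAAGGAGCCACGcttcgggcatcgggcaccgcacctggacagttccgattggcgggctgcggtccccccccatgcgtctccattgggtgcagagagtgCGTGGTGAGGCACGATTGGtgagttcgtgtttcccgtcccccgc
Creld2, chr15:88819495-88819563, plus strand, ERSE on the opposite strand: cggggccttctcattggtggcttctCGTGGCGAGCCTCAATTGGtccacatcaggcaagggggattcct
Herpud1, chr8:94386352-94386412, plus strand, ERSE-II: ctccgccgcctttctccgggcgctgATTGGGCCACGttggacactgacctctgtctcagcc
Dnajb9, chr12:44210145-44210200, minus strand, ACGTG core: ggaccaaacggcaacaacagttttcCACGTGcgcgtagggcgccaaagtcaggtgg
A match describes the letters and shows neither binding nor use. The elements are known ones of this response and the genes were listed as its members, so the shares are no test of enrichment. No match for these 3 motifs was found in the windows of Xbp1, Ern1, Edem1, Sdf2l1 and Pdia4.

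Each of the 9 genes was above the table median on all 52 arrays. Dnajb9, which encodes ERdj4, a J-domain partner that hands misfolded clients to the chaperone BiP and helps to restrain IRE1alpha, had the widest span of group means, 2.09 log2 units, against a median within-group SD of 0.16. Herpud1 spanned 0.88 and the other 7 genes 0.27 (Edem1) to 0.54 (Sdf2l1). Spread between pools grew with some treatments: the median SD of the 9 genes was 0.05 to 0.11 in the naive and day 1 groups, 0.17 in day 4 vehicle and 0.28 in day 4 Rosi. The largest SD of 4 genes fell in the day 4 Rosi group, of another 4 in day 4 TPhP, and of Ern1 in day 4 MEHP.

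**Figure D1:**
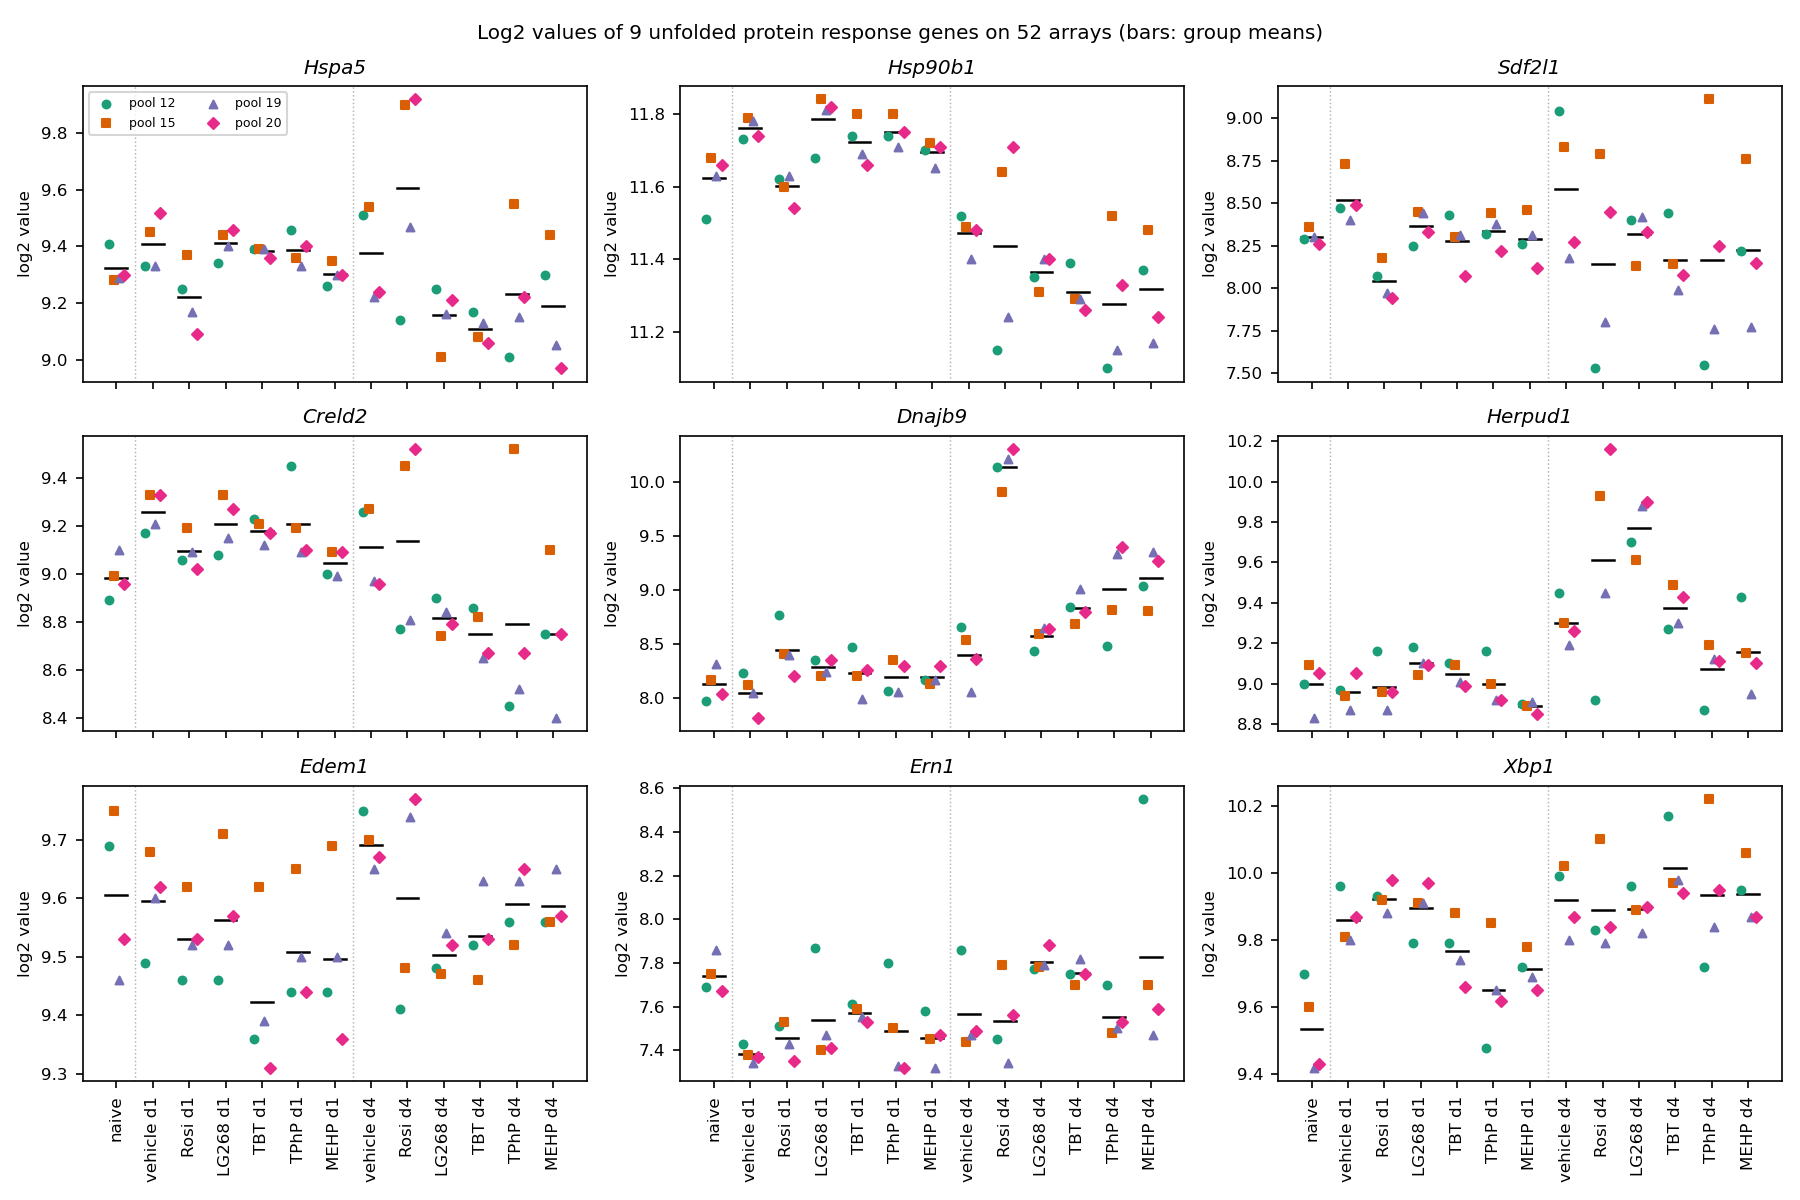
Log2 values of the 9 genes on each of the 52 arrays, by group (d1 and d4 are days 1 and 4), with pools as colours and markers and group means as bars. The 4 day 4 Rosi arrays of Dnajb9, 9.91 to 10.30, stand above all its other arrays, while the day 4 Rosi values of Hspa5 run from 9.14 to 9.92.

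Vehicle cultures in osteogenic medium were compared with naive cultures first. Xbp1 was the gene that rose. Its naive values were 9.70, 9.60, 9.42 and 9.43 in pools 12, 15, 19 and 20, and its day 1 vehicle values were 9.96, 9.81, 9.80 and 9.87. All 4 day 1 arrays lay above all 4 naive arrays, a log2 difference of 0.32 ± 0.083 (SE) (limma adjusted p = 0.00486). The difference from naive was 0.38 at day 4, with values of 9.99, 10.02, 9.80 and 9.87 (limma adjusted p = 0.000454), and again the groups did not overlap. The array reads the whole Xbp1 transcript and does not tell its spliced from its unspliced form. Without pool 19 the day 1 adjusted p was 0.0855, and without pool 20 it was 0.127. The call was 1 of 9 genes at each time, where 17.7% of all genes were called at day 1 and 28.9% at day 4.

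The sensor Ern1 had naive values of 7.69, 7.75, 7.86 and 7.67 and day 1 vehicle values of 7.43, 7.38, 7.34 and 7.37. Every day 1 array was below every naive array, by 0.36 on average, a difference that missed the threshold (log2 difference -0.36, limma adjusted p = 0.0515) and passed it with the pools as a replicate block (0.0214). Between day 1 and day 4 of vehicle, 12.9% of all genes were called. Hsp90b1, the ER paralogue of HSP90 known as GRP94, fell there by 0.29 ± 0.0825 (limma adjusted p = 0.0156), from 11.73, 11.79, 11.78 and 11.74 to 11.52, 11.49, 11.40 and 11.48, with no overlap. Its adjusted p was 0.144 without pool 19 and 0.0777 without pool 20. Herpud1, 8.87 to 9.05 at day 1 and 9.19 to 9.45 at day 4, also did not overlap between those groups, with a log2 difference of 0.34 (adjusted p = 0.0756).

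The wider pathway was read from lists that leave out these 9 genes. In vehicle day 1 against naive, 12.9% of all genes rose and 4.86% fell. Among 25 ER chaperones and foldases, 11 rose and 1 fell (median log2 difference 0.19, against 0.05 over all genes). Fkbp11, a prolyl isomerase of secretory cells, rose by 1.08 (adjusted p = 0.0036) and Fkbp14, an isomerase that acts on procollagen, by 0.77 (adjusted p = 0.000501). Of 26 translocon and secretory genes 14 rose and 1 fell (median 0.24), with Srpr, a subunit of the signal recognition particle receptor, up by 0.44 (adjusted p = 6.41e-06) and the retrieval receptor Kdelr2 by 0.55 (adjusted p = 0.000259). Of 17 genes of ER-associated degradation 6 rose and none fell, and Ube2j1, a ubiquitin-conjugating enzyme of the ER membrane, rose by 0.39 (adjusted p = 7.65e-06).

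The PERK and ATF4 arm went the other way at day 1, with 7 of 16 genes lower and 1 higher (median -0.60). Atf5 fell by 1.44 (limma adjusted p = 0.000424), the stress factor gene Atf3 had a log2 difference of -2.05 (0.00955) and Vldlr of -0.99 (0.0131), each lower in 4 of 4 pools, while the mTOR inhibitor gene Ddit4 rose by 1.08 (0.0193). Atf3, Vldlr and Ddit4 were not called without pool 19 or pool 20, nor Atf3 without pool 15. Of the 9 membrane-bound UPR factors, Creb3 alone was called, and it rose, as did 6 of the 15 cytosolic and mitochondrial chaperones. Without pool 19 or pool 20, the ER chaperones that rose numbered 4 and 3, the translocon genes 6 and 5, the degradation genes 3 and 3, and the PERK genes that fell 1 and 1. Without pool 15 the last count was 2, and the cytosolic count was 3 without pool 19. With only the 8 arrays compared in the fit, 7 ER chaperones, 9 translocon genes and 3 degradation genes rose. Between naive and day 1 vehicle 3 of 11 osteoblast markers and 2 of 9 stromal markers rose and 2 of 7 B cell markers fell. By day 4 in vehicle 6 of 7 osteoclast markers were higher and 6 of 7 B cell markers lower than in naive cultures. The part of these cells in the Xbp1, Ern1 and Hsp90b1 differences and in the list counts was not tested.

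After 1 day of treatment no chemical moved any of the 9 genes past the threshold, by limma. At an unadjusted p under 0.05 there were 2 genes with Rosi (Dnajb9 and Sdf2l1), 0 with LG268, 1 with TBT (Edem1), 1 with TPhP (Xbp1) and 0 with MEHP. Of all genes, 7.25% were called with Rosi, 0.241% with LG268, 0.543% with TBT, 0.215% with TPhP and 0.523% with MEHP. Sdf2l1, an ER protein that works with BiP and its partner DNAJB11, had vehicle values of 8.47, 8.73, 8.40 and 8.49 and Rosi values of 8.07, 8.18, 7.97 and 7.94. The groups did not overlap, but the difference of -0.48 ± 0.218 did not pass (adjusted p = 0.223, and 0.00978 with only the 8 arrays compared in the fit). Dnajb9 had Rosi values of 8.77, 8.41, 8.40 and 8.21, higher than vehicle in all 4 pools by 0.39 on average (adjusted p = 0.101). The fold was 1.31, with a 95% interval of 1.07 to 1.60.

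In the wider pathway at day 1, Rosi lowered 1 of 25 ER chaperones, 1 of 17 degradation genes, 2 of 26 translocon genes and 2 of 9 membrane-bound factors. It raised none of them. These few calls are to be read against the 7.25% of all genes called in either direction. Manf, a secreted ER stress protein, had a log2 difference of -0.40 (limma adjusted p = 0.035), Selenos, of the degradation complex, of -0.43 (0.0118) and Sec24d, a coat subunit of vesicles leaving the ER, of -0.40 (0.0115). The retrieval receptor gene Kdelr3 had -0.87 (0.0125), Creb3 had -0.32 (0.0185) and Creb3l1, an ER membrane factor for collagen secretion, had -0.73 (0.0359). All 6 were lower in 4 of 4 pools. None of the 6 was called without pool 20 and only Selenos without pool 19, and Manf and Creb3 were not called without pool 12, nor Kdelr3 and Creb3l1 without pool 15. Of the PERK and ATF4 genes 0 of 16 were called, by limma, with 1 at an unadjusted p under 0.05, and of the cytosolic and mitochondrial chaperones 1 rose and 2 fell. Of 14 adipocyte markers 13 rose with Rosi by day 1, and their part in these values was not tested. The other 4 chemicals called no gene of the 6 lists at day 1. In pool 12, however, 13 of 16 PERK and ATF4 genes were higher with TPhP than with vehicle, with a median difference of 0.97. The TPhP medians of pools 15, 19 and 20 were -0.04, 0.0004 and -0.09. With MEHP 13 of 16 were also higher in pool 12 (median 0.26), and the medians of the other pools were -0.08, -0.001 and -0.02.

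By day 4 the 9 genes parted. By the limma calls Dnajb9 was higher with Rosi, TBT, TPhP and MEHP and Herpud1 with LG268 and Rosi, and the other 7 were not called with any chemical. With Rosi, Herpud1 was lower than vehicle in pool 12. Both Herpud1 calls and the TBT and TPhP calls of Dnajb9 were lost in some of the fits without a pool, as given below. The calls were 2 of 9 with Rosi, where 49.1% of all genes were called, 1 with LG268 (6.47%), 1 with TBT (20.1%), 1 with TPhP (18.9%) and 1 with MEHP (23.8%). All the called genes were higher on average, and the shares of all genes called higher were 21.3%, 4.21%, 10.6%, 11.0% and 12.1% in that order. For Rosi the median of the 9 differences, -0.03, was near that of all genes, -0.05. For the other 4 it was -0.11 (LG268), -0.16 (TBT), -0.15 (TPhP) and -0.14 (MEHP), against -0.05 to -0.02 over all genes.

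**Figure D2:**
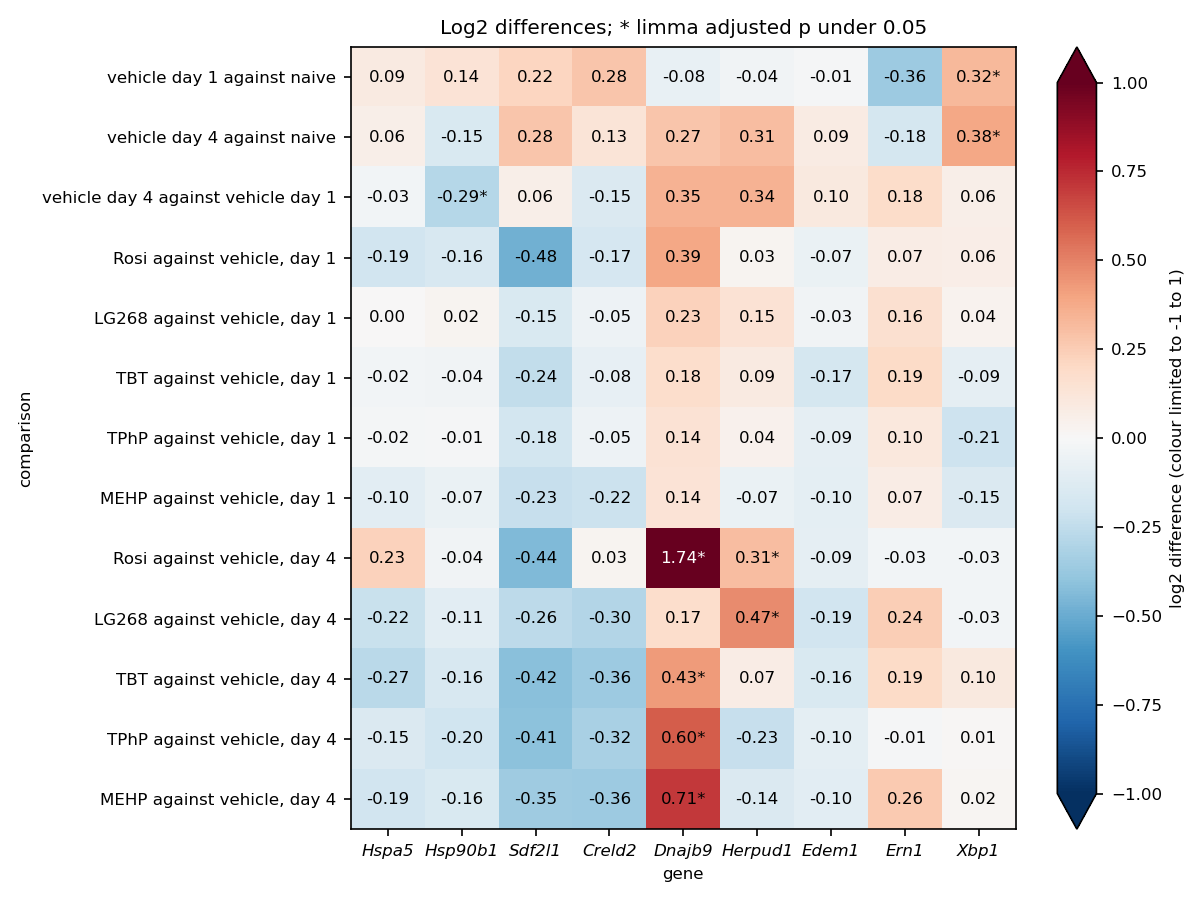
Log2 differences of the 9 genes (columns) in 13 comparisons (rows), printed and coloured, with a star where the limma adjusted p was under 0.05. Dnajb9 has 4 stars at day 4, from 0.43 with TBT to 1.74 with Rosi, and the rows of day 1 treatment have none.

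Dnajb9 showed the largest change of the set. Its day 4 vehicle values were 8.66, 8.54, 8.06 and 8.36 in pools 12, 15, 19 and 20, and its day 4 Rosi values were 10.14, 9.91, 10.21 and 10.30. The 2 groups were far apart in every pool, with pool differences from 1.37 to 2.16. The mean difference was 1.74 ± 0.144 (SE), a fold of 3.33 (95% interval 2.72 to 4.08, limma adjusted p = 2.75e-13). The Rosi group mean, 10.14 ± 0.16 (SD, n = 4), was the highest of the 13 groups.

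The other chemicals raised Dnajb9 less. MEHP arrays read 9.04, 8.81, 9.35 and 9.27, all above the vehicle arrays (difference 0.71, fold 1.64, limma adjusted p = 0.000205). TPhP arrays read 8.48, 8.82, 9.33 and 9.40, and pool 12 was below its vehicle array (difference 0.60, fold 1.52, adjusted p = 0.0019, higher in 3 of 4 pools). TBT arrays read 8.84, 8.69, 9.01 and 8.80, all above vehicle but by as little as 0.15 in pool 15 (difference 0.43, fold 1.35, adjusted p = 0.029). LG268 arrays, 8.44, 8.59, 8.65 and 8.64, overlapped with vehicle (difference 0.17, fold 1.13 with a 95% interval of 0.922 to 1.38, adjusted p = 0.552). Without pool 19 the adjusted p was 0.348 for TBT and 0.181 for TPhP, and without pool 20 it was 0.116 and 0.102. With only the 8 arrays compared in the fit it was 0.0789 for TBT and 0.17 for TPhP. The Rosi and MEHP calls held in all 4 of the fits without a pool.

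In order of group mean, Dnajb9 stood at 8.05 ± 0.17 (SD) in day 1 vehicle, 8.13 ± 0.15 in naive, 8.19 ± 0.08 in day 1 MEHP, 8.20 ± 0.15 in day 1 TPhP and 8.23 ± 0.20 in day 1 TBT. Then came day 1 LG268 at 8.29 ± 0.07, day 4 vehicle at 8.40 ± 0.26, day 1 Rosi at 8.44 ± 0.23 and day 4 LG268 at 8.58 ± 0.10. Neighbours up to this point had overlapping arrays. Day 4 TBT followed at 8.83 ± 0.14, day 4 TPhP at 9.01 ± 0.44 and day 4 MEHP at 9.11 ± 0.24, and day 4 Rosi at 10.14 overlapped with none of them.

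Herpud1, a ubiquitin-like membrane protein that assembles the ER degradation complex, behaved differently from Dnajb9. It was between 8.83 and 9.18 on all 28 naive and day 1 arrays. Day 4 vehicle arrays read 9.45, 9.30, 9.19 and 9.26, and LG268 arrays read 9.70, 9.61, 9.88 and 9.90. All LG268 arrays were above all vehicle arrays, with a difference of 0.47 ± 0.131 (fold 1.39, limma adjusted p = 0.0208). The adjusted p was 0.087 without pool 15, 0.20 without pool 19 and 0.15 without pool 20. Rosi arrays read 8.92, 9.93, 9.45 and 10.16, so that pool 12 lay below its vehicle array by 0.53 and the other 3 pools above theirs by 0.25 to 0.89. The mean difference was 0.31 (adjusted p = 0.0452). It was 0.59 without pool 12 (adjusted p = 4.14e-05), while without pool 15, 19 or 20 the adjusted p was 0.323, 0.119 and 0.581, with only the 8 arrays compared it was 0.357, and with no filter on low genes 0.0647. TBT arrays, 9.27 to 9.49, overlapped with vehicle (difference 0.07), and TPhP arrays, 8.87, 9.19, 9.12 and 9.11, were at or below the lowest vehicle array, with a difference of -0.23 that did not pass (adjusted p = 0.245).

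The BiP gene Hspa5 had day 4 vehicle values of 9.51, 9.54, 9.22 and 9.24 and Rosi values of 9.14, 9.90, 9.47 and 9.92. The Rosi arrays spanned from below the lowest to above the highest vehicle array. The difference of 0.23 did not pass (fold 1.17, 95% interval 1.00 to 1.37, limma adjusted p = 0.0876). Pool 12 had a difference of -0.37 and pools 15, 19 and 20 had 0.36, 0.25 and 0.67, and without pool 12 the difference was 0.43 (adjusted p = 0.00275). With TBT the Hspa5 arrays, 9.17, 9.08, 9.13 and 9.06, were all below the vehicle arrays, a difference of -0.27 (adjusted p = 0.0811).

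Sdf2l1, Creld2 and Hsp90b1 followed the same pools. In day 4 Rosi cultures Sdf2l1 read 7.53, 8.79, 7.80 and 8.45, with a pool 12 difference of -1.51 and a mean of -0.44 (limma adjusted p = 0.0928). Creld2, an ER stress-inducible disulfide isomerase-like protein, read 8.77, 9.45, 8.81 and 9.52 (mean difference 0.03), and Hsp90b1 read 11.15, 11.64, 11.24 and 11.71 (mean difference -0.04). With Rosi, pools 15 and 20 were high and pools 12 and 19 low for all 3 genes. Day 4 vehicle arrays of pools 12, 15, 19 and 20 read 9.04, 8.83, 8.18 and 8.27 for Sdf2l1. For Creld2 they read 9.26, 9.27, 8.97 and 8.96. The -1.51 of Sdf2l1 in pool 12 thus rests on the highest vehicle array as well as on the lowest Rosi array. Without pool 15 the Sdf2l1 difference was -0.57 (adjusted p = 0.0142).

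**Figure D3:**
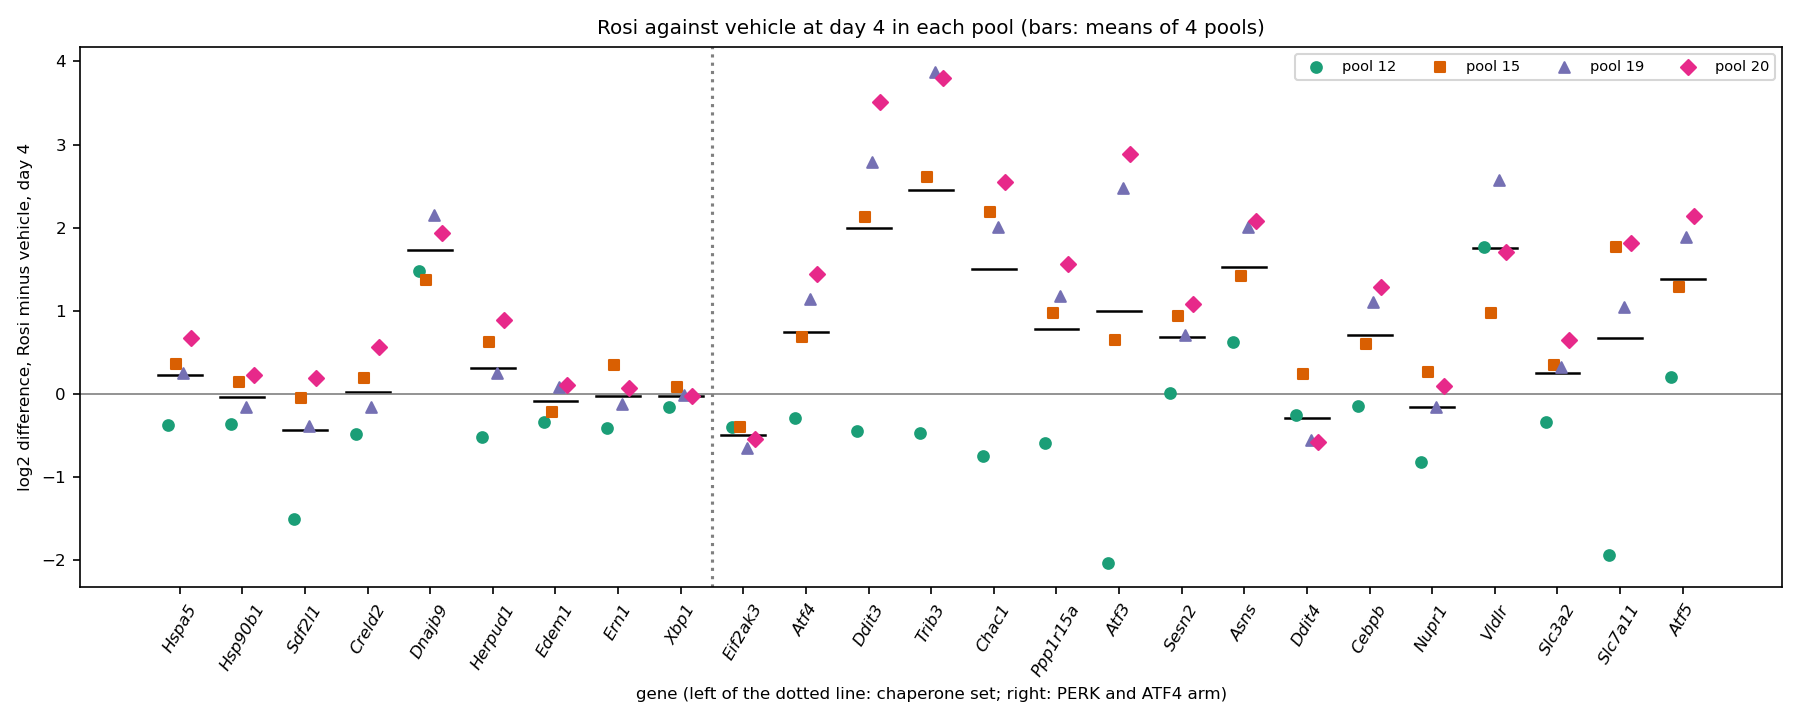
Log2 difference between Rosi and vehicle at day 4 in each pool, for the 9 genes and for the 16 tested genes of the PERK and ATF4 list, with means as bars. Dnajb9 lies between 1.37 and 2.16 in all pools, whereas pool 12 is below 0 for the other 8 genes, Herpud1 and Hspa5 included.

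TPhP showed another split between pools. Its day 4 arrays of pool 15 read 9.11 for Sdf2l1, 9.52 for Creld2 and 11.52 for Hsp90b1, and those of pool 12 read 7.55, 8.45 and 11.10. Creld2 in pools 19 and 20 read 8.52 and 8.67, near pool 12. With all pools the differences from vehicle were -0.41, -0.32 and -0.20, and none passed. Without pool 15 they were -0.64, -0.51 and -0.27 (limma adjusted p = 0.0168, 0.00674 and 0.0354), so that the count of called genes went from 1 to 4. Creld2 had a difference of -0.36 with TBT (adjusted p = 0.0817) and of -0.36 with MEHP (0.0717). As a replicate block the pools gave 0.0445 and 0.0379, and without pool 15 the MEHP value was -0.43 (adjusted p = 0.0186).

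Of the remaining genes, Edem1, which passes glycoproteins to degradation, ranged from 9.41 to 9.77 over the 24 day 4 arrays and differed from vehicle by -0.19 (LG268) to -0.09 (Rosi). The LG268, TBT, TPhP and MEHP arrays lay below the vehicle arrays, for TPhP and MEHP by a very small margin. The highest TPhP array read 9.6492 and the highest MEHP array 9.6529, against a lowest vehicle array of 9.6530. The smallest limma adjusted p was 0.139, and the share of all genes without overlap was not counted. Xbp1 differed by -0.03 to 0.10, and with Rosi its 95% interval in fold was 0.872 to 1.10. Ern1 had a difference of 0.26 with MEHP (adjusted p = 0.152), 0.24 with LG268 (0.301) and 0.19 with TBT (0.331). The MEHP arrays read 8.55, 7.70, 7.47 and 7.59, with pool 12 far above the rest, and without pool 12 the MEHP difference was 0.12 (adjusted p = 0.307). The vehicle array of pool 12, at 7.86, was above the other 3 at 7.44 to 7.49, and without pool 12 the LG268 and TBT differences were 0.35 (adjusted p = 0.00696) and 0.29 (0.0117).

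Whether a response changed with time was tested as the day 4 difference minus the day 1 difference. For Rosi 30.0% of all genes were called, and 2 of the 9. Dnajb9 had 1.35 ± 0.204 (limma adjusted p = 2.63e-06) and Hspa5 had 0.42 (adjusted p = 0.0399), going from -0.19 at day 1 to 0.23 at day 4. The Hspa5 value was lost without pool 15 (0.0651), pool 19 (0.166) or pool 20 (0.565), and was 0.65 without pool 12 (0.00289). It was also lost with only the arrays compared (0.174) and with no filter (0.0602). For the other chemicals 0 of the 9 genes were called, by limma, where the shares of all genes were 0.0805% (LG268), 1.77% (TBT), 4.49% (TPhP) and 6.36% (MEHP). At an unadjusted p under 0.05 the counts were 0, 0, 1 and 1. The MEHP value for Dnajb9 was 0.57 (adjusted p = 0.0886).

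Each chemical was then set against Rosi directly, with the reservation that TBT was given at another dose and that the doses of TPhP and MEHP are unknown here. At day 4 Dnajb9 was lower than with Rosi in all 4 cases and in all 4 pools. The difference was -1.56 with LG268, -1.31 with TBT, -1.13 with TPhP and -1.03 with MEHP (limma adjusted p = 5.27e-12, 1.92e-09, 2.47e-07 and 2.13e-06), and the groups never overlapped. The whole set gave 2, 3, 3 and 4 of 9 genes lower and none higher, where 47.8%, 38.1%, 28.2% and 26.1% of all genes were called.

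Hspa5 was lower than with Rosi by 0.45, 0.50, 0.37 and 0.42 in the same order, as log2 differences of -0.45, -0.50, -0.37 and -0.42 (limma adjusted p = 0.000789, 0.000368, 0.00942 and 0.00448). The arrays overlapped with the Rosi arrays in all 4 cases. Without pool 20 the adjusted p was 0.187 for TPhP and 0.254 for MEHP, and without pool 19 it was 0.0553 for TPhP. Herpud1 was lower with TPhP (-0.54, adjusted p = 0.00166) and MEHP (-0.46, 0.00805). These gave 0.0954 and 0.286 without pool 20, and MEHP gave 0.131 without pool 15 and 0.0622 without pool 19. Creld2 was lower with TBT (-0.39, 0.0363) and MEHP (-0.39, 0.0478), which gave 0.391 and 0.406 without pool 20. TBT was also above the threshold without pool 15 (0.0755) and MEHP without pool 19 (0.135). With the pools as a replicate block LG268 had 4 genes called, Creld2 (0.0434) and Ern1 (0.0486) in addition, and TPhP had 4, Creld2 (0.0424) in addition. With only the 8 arrays compared in the fit, Dnajb9 alone was called against Rosi in each of the 4 cases. At day 1 none of the 9 genes differed from Rosi, by limma, where 6.99% (LG268), 2.61% (TBT), 2.32% (TPhP) and 1.88% (MEHP) of all genes did. The nearest was Xbp1 with TPhP, -0.27 (adjusted p = 0.0748, and 0.0277 with the replicate block).

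In the wider pathway at day 4, many transcripts of the early secretory route were lower with Rosi than with vehicle. Cell type markers moved in the same comparison, as given below, and their part in the list counts was not tested. Of the 25 ER chaperones and foldases 16 fell and 1 rose (median -0.36), where 27.7% of all genes fell. Ppib, cyclophilin B of the collagen-folding complex, went from 10.38, 10.51, 10.56 and 10.55 with vehicle to 9.84, 10.06, 9.66 and 9.71 with Rosi. It was lower in every pool, with no overlap (log2 difference -0.68 ± 0.0668, limma adjusted p = 1.86e-11). Dnajc10, a disulfide reductase partner of BiP, fell by 1.11 (1.71e-10) and the ER peroxiredoxin Prdx4 had a difference of -0.85 (8.17e-10). The gene that rose was Ero1a, an oxidase that feeds disulfides to protein disulfide isomerase (1.77, adjusted p = 1.13e-07). Its pool differences were -0.32, 1.70, 2.84 and 2.86, so pool 12 did not share the rise.

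Of 26 translocon and secretory genes 19 fell with Rosi and none rose (median -0.38). Kdelr3 fell by 1.72 (limma adjusted p = 4.32e-08). Ostc and Ddost, of the glycan-transferring complex, had log2 differences of -0.79 (3.9e-08) and -0.68 (9.3e-09), and Kdelr2 had -0.71 (2.46e-07). With only the 8 arrays compared, 12 of the 26 fell. Degradation genes went both ways, 6 higher and 3 lower of 17, where 49.1% of all genes were called, 21.3% higher and 27.7% lower. Os9 and Edem2, which handle misfolded glycoproteins, fell, with log2 differences of -0.78 and -0.61 (limma adjusted p = 1.86e-09 and 4.22e-07), and Ufd1, a cofactor of the extracting ATPase, and Derl1, of the exit channel, rose by 0.90 and 0.74 (5.34e-09 and 1.11e-08).

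In the PERK and ATF4 arm 10 of 16 genes rose with Rosi and 1 fell (median 0.76), where 21.3% of all genes rose. Trib3 read 5.79, 4.84, 4.06 and 4.29 with vehicle and 5.31, 7.44, 7.94 and 8.09 with Rosi. It was high in 3 Rosi pools and not in pool 12, with a difference of 2.45 (limma adjusted p = 4.07e-06). Ddit3 (CHOP) read 7.25, 6.56, 5.89 and 5.84 against 6.81, 8.69, 8.67 and 9.35 (2.00, 1.09e-05), with pool 12 again apart. Asns, asparagine synthetase, rose in all 4 pools, by 0.62 to 2.07 (mean 1.53, 1.89e-06), and so did Vldlr (1.75, 1.97e-06). The PERK gene itself, Eif2ak3, was the one that fell (by 0.50, 2.14e-05). Pool 12 had 4 of 16 genes higher with Rosi, and pools 15, 19 and 20 had 15, 13 and 14. Without pool 12, 13 of the 16 rose. In vehicle cultures of day 4 the mean log2 level of this list was 7.75 in pool 12 and 6.86 to 7.19 in the others. The 4 day 1 vehicle arrays read 6.81 to 6.89, with pool 12 the lowest.

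Of the 9 membrane-bound UPR factors 5 fell with Rosi and 1 rose, where 27.7% of all genes fell and 21.3% rose. Atf6b had a log2 difference of -0.51 (limma adjusted p = 9.54e-08), Creb3l1 of -1.27 (7.88e-06) and Creb3l2 of -0.54 (0.000179). Without pool 20, 3 of the 9 fell. Atf6, whose released protein acts on ERSE motifs, rose by 0.27 (0.00398), with an adjusted p of 0.0799 without pool 19 and 0.0675 without pool 20. Outside the ER, 6 of 15 cytosolic and mitochondrial chaperones rose and 1 fell, to be read against the 49.1% of all genes called in either direction. The mitochondrial chaperones Hspa9 and Hspd1 rose by 1.30 and 1.33 (2.35e-11 and 3.39e-11) and the small heat shock protein gene Hspb8 by 1.67 (5.94e-10), while Cryab fell by 1.75 (1.8e-08).

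ER chaperone and translocon genes were also lower with TBT, TPhP and MEHP, in counts that depended on the arrays used. ER chaperones numbered 12, 13 and 15 lower of 25 (medians -0.29, -0.25 and -0.28) and 1 rose, Ero1a with MEHP. Translocon genes numbered 18, 12 and 17 lower of 26 (medians -0.28, -0.24 and -0.24), and none rose. Of all genes, 9.42%, 7.94% and 11.7% fell in that order. Fkbp11 fell with all 3, with log2 differences of -1.55, -1.50 and -1.69 (limma adjusted p = 3.58e-05, 4.65e-05 and 5.19e-06), lower in 4 of 4 pools each time. Kdelr3 had -1.46, -1.42 and -1.75 (1.04e-05, 1.21e-05 and 2.19e-07), with pool 12 higher than vehicle under TPhP. Creb3l1, among the membrane-bound factors, had -0.96, -1.13 and -1.26 (0.00177, 0.000236 and 3.82e-05), again with pool 12 higher under TPhP. The membrane-bound calls were 1, 3 and 3 of 9, all lower.

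These counts shrank without some pools. Without pool 19 or 20, the ER chaperones that fell were 7 and 4 with TBT, 4 and 3 with TPhP, and 7 and 6 with MEHP. The translocon genes that fell were 7 and 4, 1 and 1, and 5 and 5. Without pool 15 the TBT translocon count was 11. The membrane-bound factors that fell were 1 and 0 with TBT, 1 and 0 with TPhP and 1 and 1 with MEHP, and 6 with MEHP without pool 12. With only the 8 arrays compared in the fit the ER chaperone counts were 10, 0 and 2 and the translocon counts 6, 0 and 1. For Rosi these 2 counts stayed between 13 and 17 and between 15 and 19 in the fits without a pool.

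The PERK and ATF4 arm moved little with these 3 chemicals. Vldlr fell with TBT (by 0.79, limma adjusted p = 0.0475), Asns rose with TPhP (0.81, 0.0176) and MEHP (0.86, 0.00874), Cebpb rose with MEHP (0.47, 0.0318) and Eif2ak3 fell with TPhP (by 0.30, 0.0212). None of these 5 was called without pool 19, without pool 20 or with only the 8 arrays compared, nor Vldlr and Eif2ak3 without pool 12 and Cebpb without pool 15. Without pool 12 the genes of the list that rose numbered 6 with TPhP and 4 with MEHP, against 1 and 2. Degradation genes gave 2 higher and 2 lower with TBT, 3 and 3 with TPhP and 3 and 5 with MEHP, and without pool 20 none of these was called, nor more than 1 without pool 19. Cytosolic and mitochondrial chaperones gave 4 higher with each, with 2, 1 and 1 lower. Of all genes, 10.6% (TBT), 11.0% (TPhP) and 12.1% (MEHP) rose, and 9.42%, 7.94% and 11.7% fell. Without pool 19 or 20 those higher were 2 and 2 with TBT and MEHP, and Cryab fell with all 3, with log2 differences of -1.30, -1.66 and -2.06 (4.43e-05, 4.98e-07 and 4.01e-09). LG268, with 2.26% of all genes lower, called 2 ER chaperones, 4 translocon genes and 2 cytosolic chaperones, all lower, Fkbp11 (-0.96, 0.0207) and Kdelr3 (-0.88, 0.0133) among them. None of its ER chaperones or translocon genes was called without pool 15, 19 or 20, and without pool 12 there were 3 and 7. Its 2 cytosolic chaperones were not called without pool 19, without pool 20 or with only the arrays compared, and 1 was called without pool 15. It called no gene of the other 3 lists, by limma, with 2 of each at an unadjusted p under 0.05.

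**Figure D4:**
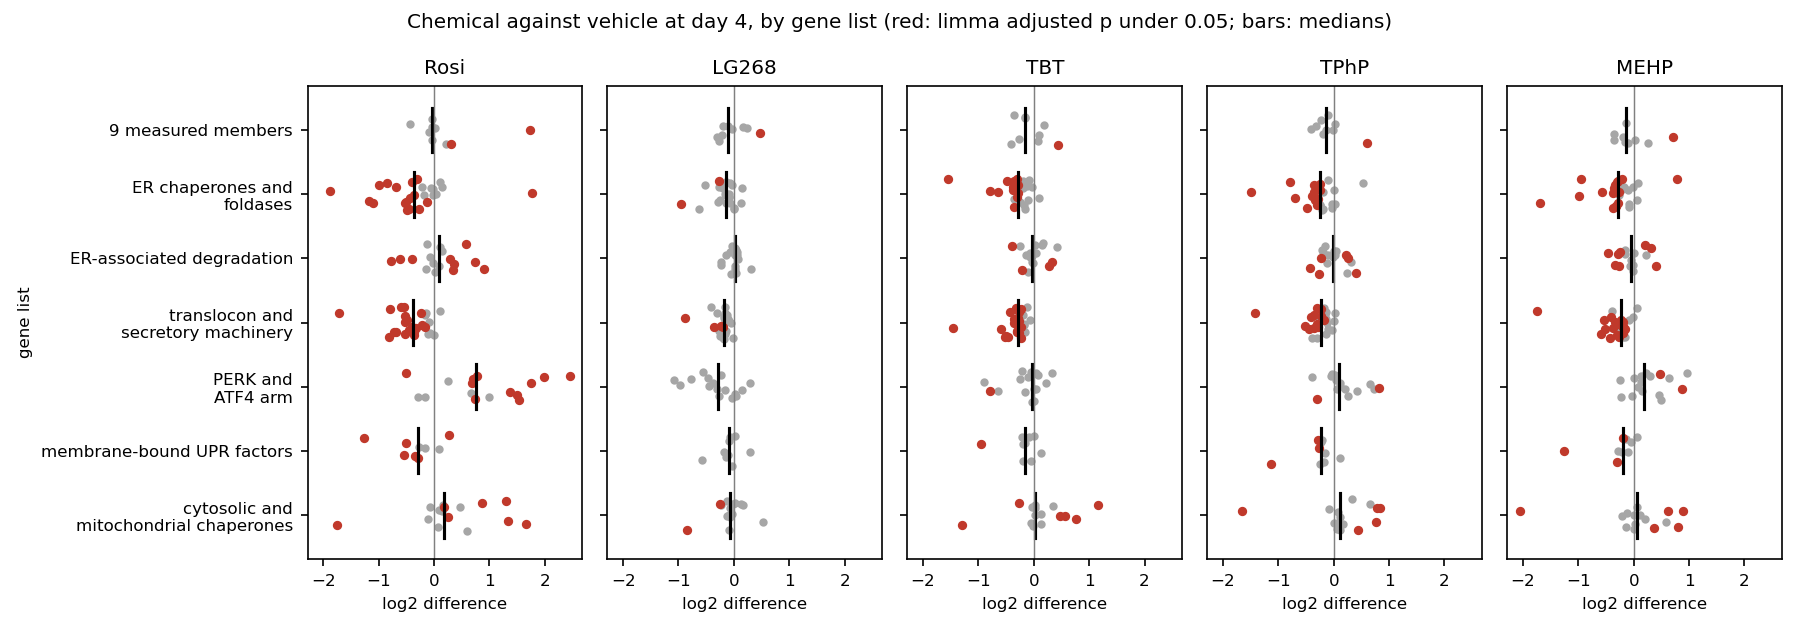
Log2 difference from vehicle at day 4 for each gene of the 9 measured and of the 6 pathway lists (rows), by chemical (panels), with red points for a limma adjusted p under 0.05 and bars for medians. With Rosi the ER chaperone and translocon medians lie at -0.36 and -0.38 and the PERK and ATF4 median at 0.76.

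Cell type markers moved at the same time. All 14 adipocyte markers rose at day 4 with Rosi, TBT, TPhP and MEHP, and 8 rose with LG268. Their mean log2 level was 6.51 to 7.99 over the vehicle arrays, 10.37 to 10.96 with Rosi, 9.34 to 10.32 with TBT, 9.72 to 10.55 with TPhP, 9.63 to 10.65 with MEHP and 8.26 to 8.99 with LG268. Of 11 osteoblast markers 9, 8, 7 and 8 fell with the first 4 and 2 with LG268. Their level was 7.77 to 9.39 with vehicle and 6.41 to 7.29 with Rosi, and the mature osteoblast gene Bglap was above the table median on 15 of the 52 arrays only. All 11 macrophage markers fell with Rosi, from a mean level of 10.47 to 10.79 with vehicle to 9.12 to 10.38, and pool 15, at 10.38, kept the highest level. Of 9 stromal markers 6 fell with Rosi and 3 rose with LG268, with a mean level of 8.79 to 9.31 with vehicle, 8.07 to 8.66 with Rosi and 9.51 to 9.63 with LG268. Of 7 osteoclast markers 4 fell with Rosi, from 6.96 to 7.97 with vehicle to 5.90 to 6.67. In bulk RNA a lower share of a cell type and less RNA per cell cannot be told apart. The part of these shifts in the differences of the 9 genes and of the pathway lists was not tested.

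The mean level of the 8 neutrophil markers varied between pools and treatments. At day 4 it was 9.02, 8.80, 7.36 and 7.57 with vehicle and 8.34, 7.75, 7.25 and 7.52 with Rosi, lower in every pool, and it was 5.49 to 6.95 with LG268 and 6.20 to 7.59 with TBT. With TPhP it was 4.83, 9.06, 7.64 and 8.97, where Sdf2l1 was 7.55, 9.11, 7.76 and 8.25 and Creld2 8.45, 9.52, 8.52 and 8.67. Pool 12 was thus lowest and pool 15 highest in all 3, while pool 20 had a neutrophil level near that of pool 15 and a Creld2 value near that of pool 12. With Rosi, pool 12 had the highest neutrophil level and the lowest Sdf2l1 value. The plasma cell list, which shares Derl3 with the degradation list, had a mean level of 5.55 to 7.20 over the day 4 TPhP arrays and 6.61 to 6.91 over the vehicle arrays. The part of these lists in the spread of the 9 genes was not tested.

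The 9 genes fell into more than one pattern across the 52 arrays, which share pools and treatments, so that correlations are descriptions only. Hspa5, Hsp90b1, Sdf2l1 and Creld2 moved together, with Pearson r of 0.50 to 0.82 over their 6 pairs and 0.83 to 0.89 once group means were taken off. Dnajb9 had r of -0.56 to 0.50 with the other 8 genes, and -0.13 to 0.14 with group means taken off. Genes with predicted, clone or accession-type symbols were left out of the searches for similar genes. Among the rest, the genes nearest to the mean of the 9, by Pearson r over the 52 arrays, were Cd164 (0.73), Wars (0.71), Clcn3 (0.69), Ubd (0.69), Dusp3 (0.68), Fbxl5 (0.67), Sgms1 (0.67) and Chka (0.67). Taken for Dnajb9 alone, a search added after its values were seen, they were Afg1l (0.963), Bcat2 (0.953), Ndufv3 (0.951), Ndufb5 (0.950), Etfrf1 (0.949), Cox5a (0.949), Coq9 (0.949) and Hdhd2 (0.947). Ndufv3, Ndufb5 and Cox5a encode subunits of the mitochondrial respiratory chain.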

How the data were processed

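The platform was the Affymetrix Mouse Gene 2.0 ST array. The deposited values are log2 intensities per probe set; the submitters' processing notes name R 3.3.1 and oligo, and how the authors normalized them is not given in the sources used here. Of 41345 probe sets, 23521 were annotated to 1 gene, 1814 to several and 16010 to none, by GEO's platform annotation. A gene was tested where at least 4 arrays exceeded the table median. Group means of all 13 groups were fitted in limma 3.58.1 (R 4.3.3), two-sided, with Benjamini-Hochberg adjustment over 14911 genes and a threshold of 0.05. No block was used. The replicate numbers in the labels were read as the pools of animals that the growth protocol describes, an inference, and so as pairing the arrays across groups. After group means were removed, 43 of 52 arrays had their highest mean correlation with the arrays of their own pool (median same-pool r 0.219). Removing group means lowers the correlation between arrays of 1 group, which are all of different pools. The count therefore favours the own pool and does not establish the pairing. The fits were tested on simulated data. Lists covered ER chaperones and foldases, ER-associated degradation, translocon and secretory machinery, the PERK and ATF4 arm, membrane-bound UPR factors, cytosolic and mitochondrial chaperones, and markers of adipocytes, osteoblasts, stromal cells, B cells, plasma cells, macrophages, osteoclasts and neutrophils. The 10 genes and the lists were chosen with earlier results of these data known. Named were all 9 measured genes and up to 4 genes per list and comparison with the smallest adjusted p. The 8 genes most like the mean of the set were named too, with predicted, clone and accession-type symbols left out of the search. Atf6, Creb3l1, Kdelr3, Fkbp11, Cryab and a few others are repeated across comparisons. Alternatives were the pools as a replicate block, fits to the compared arrays only, cyclic loess, the mean of a gene's probe sets, other filters and each pool left out. Promoter sequences are RefSeq's.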

Additional observations from a re-analysis of the deposited data

Results flagged for a closer look

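The gap between 1 array and the other 3 of its group exceeded Dixon's critical value of 0.829 in 5 of 117 combinations of gene and group, where chance gives about 1 in 20. Hspa5 read 9.36 in pool 20 of day 1 TBT, below 3 arrays at 9.39. Xbp1 read 10.17 in pool 12 of day 4 TBT, above 9.94 to 9.98. Ern1 read 7.87 in pool 12 of day 1 LG268 and 7.86 in pool 12 of day 4 vehicle, above 7.40 to 7.47 and 7.44 to 7.49. Edem1 read 9.65 in pool 19 of day 4 MEHP, above 9.56 to 9.57.

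The response to Rosi differed between the 2 times, by a limma test of the day 4 difference minus the day 1 difference, for Dnajb9 (1.35) and for Hspa5 (0.42).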

How the results depend on the processing

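All counts here are of the 9 genes called, and no difference called with all arrays changed its direction under any alternative. With the replicate block the count was 2 for vehicle day 1 against naive (1 before), 2 for TBT and 2 for MEHP at day 4 (1 each before), 1 for TPhP against Rosi at day 1 (0 before), 4 for LG268 against Rosi at day 4 (2 before) and 4 for TPhP against Rosi at day 4 (3 before). The block changed no other call. With only the arrays compared it was 2 for vehicle day 1 against naive, 1 for Rosi at day 1 (0 before), 1 for Rosi at day 4 and 1 for its change with time (2 each before), 0 for TBT and 0 for TPhP at day 4, 1 for LG268 against Rosi at day 1 (0 before) and 1 for each chemical against Rosi at day 4. With cyclic loess it was 2 for vehicle day 1 against naive, 2 for vehicle day 4 against day 1, 1 for TPhP against Rosi at day 1, and 5 for LG268, TBT and TPhP against Rosi at day 4. The stricter filter gave 2 for vehicle day 1 against naive and 1 for TPhP against Rosi at day 1, and no filter gave 1 for Rosi at day 4 and 1 for its change with time. In all, 4 single gene calls were lost with no filter, the remaining ones in comparisons of other chemicals with Rosi at day 4.

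Leaving out each pool in turn gave 0 to 2 for vehicle day 1 against naive, 1 to 2 for vehicle day 4 against naive, 0 to 1 for vehicle day 4 against day 1, 1 to 3 for Rosi at day 4 and 1 to 3 for its change with time, 0 to 2 for LG268, 0 to 2 for TBT, 0 to 4 for TPhP and 1 to 2 for MEHP at day 4, and 0 to 1 for TPhP against Rosi at day 1. Against Rosi at day 4 it gave 2 to 4 for LG268, 2 to 5 for TBT, 1 to 4 for TPhP and 1 to 4 for MEHP. Such fits hold fewer arrays. Of the single gene differences under alternatives, 2161 kept their side of the threshold and direction, 44 lost it, 41 gained it and 94, all uncalled, changed sign. Of the list counts 2652 stayed within 1.5 times and 468 did not. The cause of these changes was not tested.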
